A study of Mus musculus with 12 samples.

Results

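The cytosolic ribosomal protein genes of the mouse retina were taken by name: protein-coding rows on the reference chromosomes whose symbol is Rpl or Rps followed by a number, Rplp0 to Rplp2, or Rpsa. The rule found 83 genes among 53028 gene rows, 31 named for the small ribosomal subunit and 52 for the large one, on 19 chromosomes. Poly(A) RNA of whole retina had been sequenced in 12 libraries, 3 in each of 4 groups. These were retinas of Pilrb1/2 -/- mice (KO) and of Pilrb1/2+/+ mice (WT) at P28, which is 28 days after birth, and KO and WT retinas at 12 months of age. Per the series text the line was made by CRISPR deletion in C57BL/6J zygotes, a founder was bred back to C57BL/6J, and Pilra as well as Pilrb1/2 was deleted, while the sample labels name Pilrb1/2 alone. The deletion is in every cell and not limited to the retina. How many animals stand behind the libraries of a group is not given, so p-values here cover the spread between libraries, which may be technical.

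Ribosomes translate all mRNA of the cytosol. The small subunit binds the mRNA and reads its codons, and the large subunit joins the amino acids. Each subunit is ribosomal RNA clothed in proteins that are mostly needed in equal numbers, so their genes are commonly expressed together, at high levels, from short mRNAs. Most of these mRNAs begin with a run of pyrimidines, the terminal oligopyrimidine (TOP) motif, through which the kinase mTORC1 controls their translation. In the retina the photoreceptors, which renew their outer segments daily, have a high demand for protein synthesis.

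The gene values were CPM (read counts scaled to library size) as normalised by the authors, and log2 fold changes were taken after adding 1 to the CPM, which understates changes of genes near 1 CPM. Depth read back from the values was 14.7 to 25.9 M reads per library, and 3 reads corresponded to 0.111 to 0.192 CPM, a floor that covers counting error only. Xist, the RNA of the inactive X chromosome, marked 2 of 3 P28 KO libraries (2 and 3) and 2 of 3 12-month WT libraries (1 and 2) as female and the other 8 as male, so sex differed between the genotypes at each age. Pilrb1 and Pilrb2 were at 0 or at about 1 read in all 12 libraries and cannot show which ones carry the deletion. Pilra was at 0.441, 1.16 and 0.819 CPM in P28 KO against 0.133, 0.167 and 0.171 CPM in P28 WT, and at 0.0556, 0.309 and 0.293 CPM in 12-month KO against 0.159, 0.221 and 0.268 CPM in 12-month WT, so it showed no loss in the libraries labelled KO. Rod markers such as Gnat1 and Sag were abundant in every library, as the tissue label says. Lens markers summed to 5313 CPM in P28 KO library 2, against 1957 and 731 CPM in P28 WT libraries 3 and 2. At 12 months they summed to 736 CPM in KO library 2, against 44.0 and 15.6 CPM in KO libraries 1 and 3 and 11.3 to 56.6 CPM in WT.

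Summed over the 83 genes, ribosomal protein signal was lower in KO than in WT at both ages. At P28 the sums were 5446, 5407 and 4716 CPM in KO, against 7829, 5861 and 6746 CPM in WT. At 12 months they were 5353, 4705 and 5408 CPM in KO, against 6663, 6522 and 6640 CPM in WT. No KO library reached the lowest WT library of its age, P28 WT library 1 was the highest of all 12, and 12-month KO library 2 and P28 KO library 3 were the lowest. The ratio of the means was 0.762 at P28 and 0.780 at 12 months, and at P28 it was 0.823 without P28 WT library 1. The share of all gene signal was 0.535% ± 0.0657 in P28 KO against 0.695% ± 0.0901 in P28 WT, and 0.480% ± 0.0469 in 12-month KO against 0.678% ± 0.0164 in 12-month WT (SD, n = 3 each). In a bulk sample, fewer cells of a type and less RNA per cell cannot be told apart. Rod markers moved the same way: 7 of them summed to 16423 to 17101 CPM in P28 KO against 17937 to 21534 CPM in P28 WT, and to 14444 to 17205 CPM in 12-month KO against 19049 to 20921 CPM in 12-month WT. All KO libraries lay below all WT libraries in 3 of the 7 rod markers at P28 and in 4 at 12 months, where 2 had all KO libraries above, and none of the 7 was at 0. The 5 erythrocyte markers were lower in all KO libraries as well, at 12.6 to 23.6 against 32.5 to 49.6 CPM at P28 and at 4.3 to 9.9 against 19.2 to 34.1 CPM at 12 months (KO against WT). Other marker lists went both ways. At 12 months the summed cone, Mueller glia and microglia markers were lower in all KO than in all WT libraries. Summed bipolar, amacrine, ganglion and horizontal cell markers were higher in all KO libraries. Single markers at 12 months were mixed. Of 5 bipolar markers 1 lay higher and 1 lower in all KO libraries, and of 4 amacrine markers 2 and 1. Of 5 ganglion cell markers 3 lay higher and 2 lower, while all 3 horizontal cell markers lay higher. Of 5 cone markers 5 lay lower, of 4 Mueller glia markers 3, and of 6 microglia markers 4, with 1 microglia marker higher. At P28 summed Mueller glia markers were lower, and summed bipolar and microglia markers higher, in all KO libraries. Singly, this held for 1 of 4 Mueller glia, 2 of 5 bipolar and 2 of 6 microglia markers. The remaining sums overlapped. The part of cell makeup in the ribosomal protein values was not tested.

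**Figure D1:**
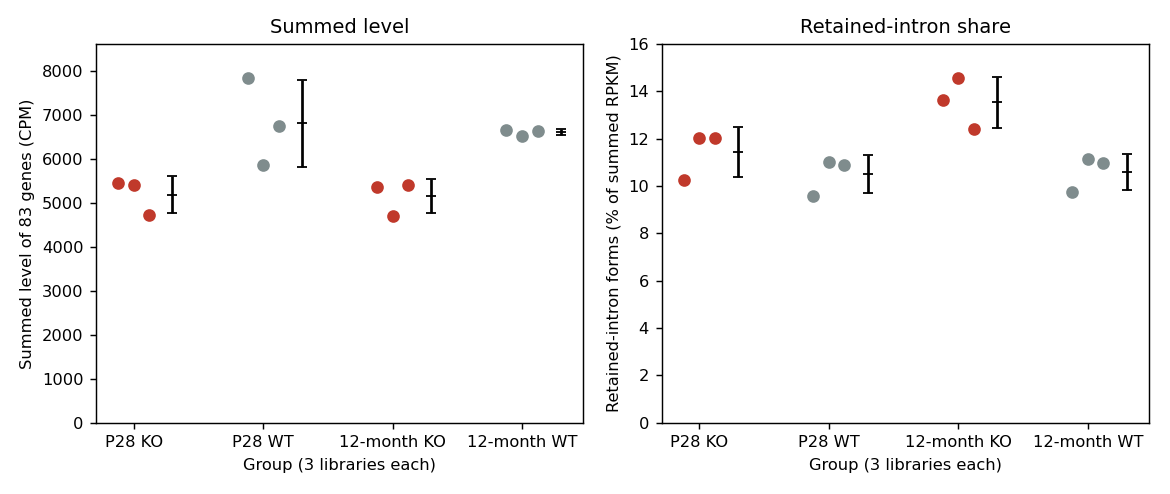
Left, CPM summed over the 83 ribosomal protein genes in each library; right, the percentage of their summed RPKM in retained-intron transcripts. Points are libraries, and bars are the mean and SD of 3 libraries. At both ages the KO sums lie below every WT sum, and the 12-month KO libraries have the highest retained-intron shares.

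Levels of different genes were compared per length, as RPKM (reads scaled to transcript length and library size) summed over a gene's transcripts. Rps24, a small-subunit protein mutated in human Diamond-Blackfan anaemia, was the most abundant member at a mean of 619.5 RPKM over the 12 libraries. Rpl9 (343.3 RPKM), Rps27a (336.5 RPKM), Rpl30 (307.4 RPKM) and Rpl7 (285.5 RPKM) followed. Rps27a encodes ubiquitin fused to a ribosomal protein. Rps24 was at 526, 498 and 536 RPKM in P28 KO, against 714, 567 and 702 RPKM in P28 WT. The 12-month values were 646, 700.5 and 642 RPKM in KO, against 591, 682 and 629.5 RPKM in WT. Rps24 therefore lay below WT in all P28 KO libraries, while its 12-month groups overlapped. The order of the next members was not separated by their spread: Rpl9 ran from 233 to 453 RPKM over the libraries and Rps27a from 264 to 422 RPKM.

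At the other end stood 4 genes below the expression filter of 1 CPM in 3 libraries. Rpl10l, the autosomal copy of X-linked Rpl10 that serves the male germline, had 0.0396 CPM (1 read) in P28 WT library 1 and was at 0 in the other 11. Rpl3l, the copy of Rpl3 known from striated muscle, had at most 0.169 CPM, and Rpl39l, the testis copy of Rpl39, at most 0.205 CPM. Rpl36, which is no paralog but a large-subunit protein itself, was measured at 0.542, 0 and 0.317 CPM in P28 KO against 0.760, 0.274 and 0.499 CPM in P28 WT. The 12-month values were 0.166, 0.109 and 0 CPM in KO against 0.845, 0.208 and 0.793 CPM in WT. Rpl36 has the second highest GC content of all members (60.84%), and rows named as its pseudogenes held 50.1% of the joint signal. Rpl12, a protein of the stalk base, was the lowest tested member, at a mean of 3.21 RPKM, followed by Rpl28 (5.37 RPKM) and Rps26 (9.47 RPKM).

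Other paralogs were well measured. Rpl22l1, which can replace Rpl22, had a mean of 119.9 RPKM, against 92.0 RPKM for Rpl22. Rps27l, a p53-induced relative of Rps27, had 21.7 RPKM against 252.7 RPKM for Rps27, and Rpl36al had 32.3 RPKM against 69.3 RPKM for Rpl36a. Rpl7l1, a nucleolar relative of Rpl7, had 13.6 RPKM against 285.5 RPKM for Rpl7. Paralogs of near-identical sequence share reads, so the split between them is uncertain.

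**Figure D2:**
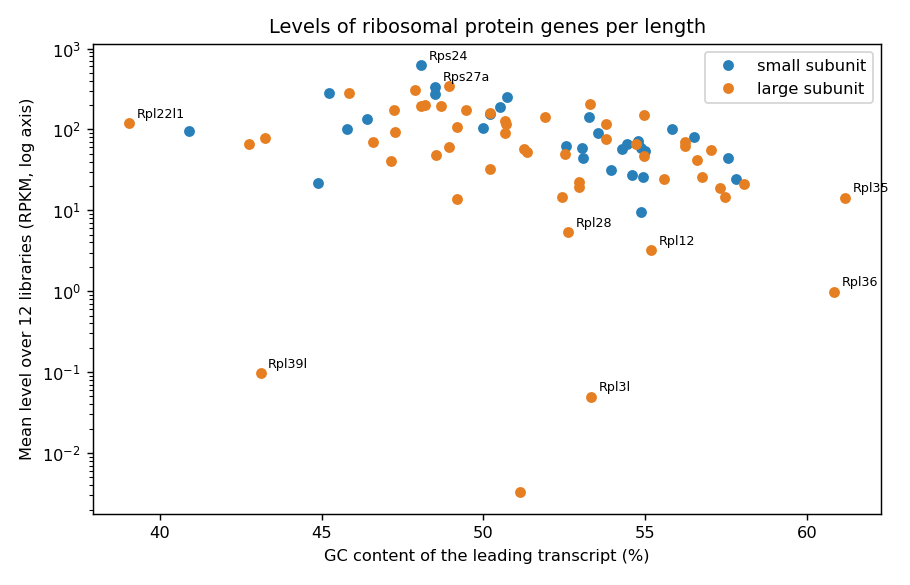
Mean level of each ribosomal protein gene over 12 libraries (RPKM, log axis) against the GC content of its leading transcript (%). The level tends to be lower at high GC content, and Rpl36, Rpl3l, Rpl39l and Rpl10l (the lowest point) lie below 1 RPKM.

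The level of a member was related to its base composition. Over the 83 members, mean RPKM and GC content of the leading (most abundant) transcript had a Spearman correlation of -0.48, and over the 79 tested members of -0.53, against -0.17 over 16274 tested genes. These points share libraries and depth. Members had short transcripts, with a median of 596 bases against 2681 bases for tested genes, and a median GC content of 52.5% against 48.5%. In the 19 tested members of lowest GC content the median level was 135 RPKM, and in the 20 of highest GC content it was 43.4 RPKM.

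At P28, KO against WT, 3 members fell and 0 rose of 79 tested (limma, adjusted p under 0.05), where 0.491% of all 16486 tested genes fell and 1.0% rose. Rpl11, a large-subunit protein that binds Mdm2 when ribosome assembly is disturbed, was at 8.75, 10.5 and 7.43 CPM in KO, against 26.2, 16.9 and 18.3 CPM in WT (log2 fold change -1.11 ± 0.24, limma SE; adjusted p = 0.0413). Every KO library lay below every WT library. Rps7, a small-subunit protein that also binds Mdm2, was at 43.2, 47.2 and 50.1 CPM in KO, against 68.8, 59.3 and 72.7 CPM in WT (log2 fold change -0.50 ± 0.10, adjusted p = 0.0320). Its groups did not overlap either. Rpl35a, a large-subunit protein of the Diamond-Blackfan group, was at 96.2, 88.6 and 87.6 CPM in KO, against 146.2, 107.1 and 125.8 CPM in WT (log2 fold change -0.46 ± 0.10, adjusted p = 0.0458). Rps7 is mixed with other sequences: 55.6% of Rps7's RPKM in P28 KO, against 39.3% in P28 WT, was in transcripts not annotated as protein-coding, and 54.2% of the joint signal of Rps7 and its pseudogene rows was in the pseudogenes.

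The other members leaned the same way. The log2 fold change was below 0 in 78 of 79 members, against 52.3% of all tested genes, with a median of -0.46 against -0.01. Rpl5, which forms a complex with Rpl11 and 5S ribosomal RNA, was the exception, at 0.06. In 50 of 79 members every KO library lay below every WT library, where this held for 13.2% of tested genes. At an unadjusted p under 0.05, 56 members were lower and 0 were higher, where 10.9% of tested genes were lower and 10.5% higher. Rpl35, with a log2 fold change of -1.68 ± 0.48, had the lowest value but did not pass (adjusted p = 0.0854). It was at 7.84, 1.08 and 4.67 CPM in P28 KO, against 15.9, 12.8 and 13.7 CPM in P28 WT, and library 2 was the one with the most lens signal. Over the 12 libraries, transcripts not annotated as protein-coding held 87.8% of the RPKM of Rpl35.

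The number that passed at P28 turned on single libraries. It was 19 without P28 KO library 2, 6 without P28 WT library 2 or without 12-month KO library 2, 4 without P28 KO library 1, 1 without 12-month KO library 3, and 0 without any 1 of the other 7 libraries. It was 0 with a term for sex, and 32 with array weights, which give discordant libraries less influence. The shares of all tested genes under these changed fits are not given here.

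**Figure D3:**
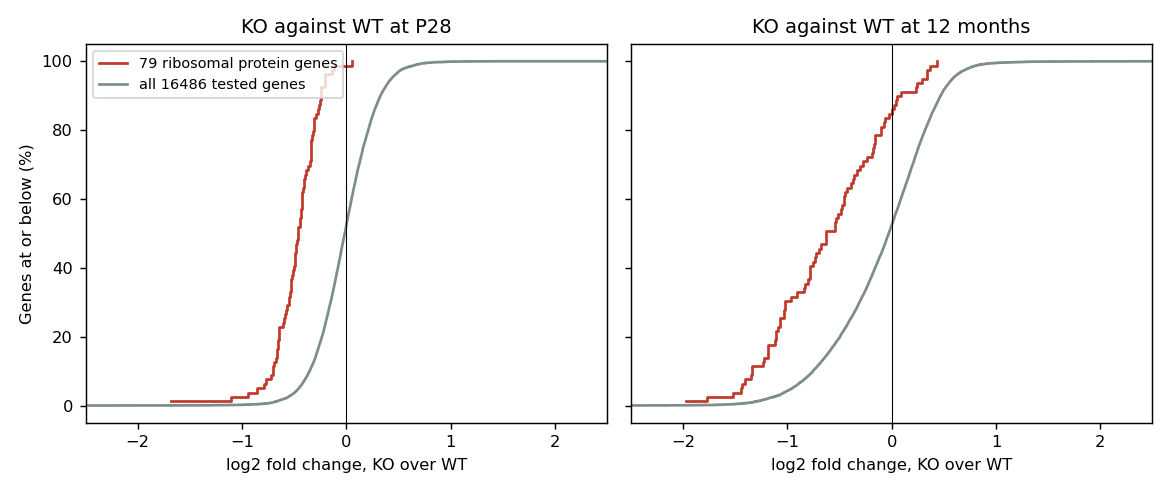
Cumulative share of genes (%) at or below each log2 fold change, KO over WT, at P28 (left) and 12 months (right), for the 79 tested ribosomal protein genes and all 16486 tested genes. At P28 the members run from -1.68 to 0.06, with 78 of 79 below 0, and at 12 months from -1.97 to 0.44.

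At 12 months, KO against WT, 51 members fell and 2 rose of 79, where 23.5% of all tested genes fell and 16.1% rose. The median log2 fold change was -0.63 against -0.03 over all tested genes, and 68 members were below 0. In 59 members every KO library lay below every WT library, against 32.2% of tested genes. By subunit, 17 small-subunit genes fell and 1 rose of 31 (median -0.54), and 34 large-subunit genes fell and 1 rose of 48 (median -0.63). Without 12-month KO library 2, which had the lowest sum over the members and the most lens signal of that age, 34 fell and 0 rose, and without 12-month WT library 1, 39 fell and 0 rose. The count that rose was 4 without P28 KO library 2 and 1 without P28 KO library 1, P28 WT library 1, 12-month KO library 1 or 12-month WT library 3. Among male libraries only, which leave 1 WT library at 12 months that is assumed to vary like the others, 19 fell and 0 rose.

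The largest falls of the small subunit were led by Rps15, which sits near the decoding centre. Rps15 was at 5.44, 1.82 and 6.12 CPM in 12-month KO, against 23.3, 14.9 and 19.3 CPM in 12-month WT (log2 fold change -1.97 ± 0.39, adjusted p = 0.00381). The groups were well apart, and KO library 2 was the lowest. Rps9, a protein of the body of the subunit, was at 14.6, 6.75 and 14.5 CPM in KO, against 38.9, 24.2 and 33.5 CPM in WT (-1.40 ± 0.27, adjusted p = 0.00356). Rps18 (-1.34, adjusted p = 0.00352) and Rps10 (-1.19, adjusted p = 0.00509), proteins of the head of the subunit, fell as well. In each of these 4 genes, KO library 2 was the lowest of the 12 and no KO library reached a WT library of that age.

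In the large subunit, Rpl8, which lies near the peptidyl transferase centre, was at 8.64, 4.59 and 9.39 CPM in 12-month KO, against 33.3, 20.9 and 28.4 CPM in 12-month WT (log2 fold change -1.77 ± 0.31, adjusted p = 0.00297). Rpl18 was at 3.82, 1.67 and 5.23 CPM in KO, against 12.2, 10.2 and 11.8 CPM in WT (-1.52 ± 0.31, adjusted p = 0.00398). Both were more than 2-fold lower in every KO library than in the mean WT library. Rpl35, which lies beside the exit of the peptide tunnel, was at 2.73, 1.48 and 7.03 CPM in KO, against 13.2, 7.16 and 12.0 CPM in WT (-1.45 ± 0.48, adjusted p = 0.0303). Its KO library 3 and WT library 2 nearly met, and it did not pass without KO library 1 or 2 or without WT library 1 or 3. Most of this signal was in forms not annotated as protein-coding, at 93.9% of its RPKM in 12-month KO and 86.6% in 12-month WT. On coding transcripts alone, which were at a low level, Rpl35 was at -1.31. Further falls were in Rpl41 (-1.35), the smallest ribosomal protein, Rpl37a (-1.23) and Rpl7a (-1.22), with adjusted p from 0.00300 to 0.00387.

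The stalk, the arm of the large subunit that recruits elongation factors, is built of Rplp0, Rplp1 and Rplp2, and all of its genes fell on the deposited values. Rplp0 was at 16.3, 8.99 and 16.7 CPM in 12-month KO, against 43.5, 34.7 and 36.8 CPM in 12-month WT (log2 fold change -1.43 ± 0.26, adjusted p = 0.00306). Rplp1 followed at -1.07 ± 0.22 (adjusted p = 0.00441) and Rplp2 at -0.81 ± 0.12 (adjusted p = 0.00256). Rplp2 was at 8.01, 6.88 and 8.16 CPM in KO, against 15.5, 12.7 and 14.3 CPM in WT, so its KO libraries were close together. With the trend in GC content and length removed, Rplp0 alone of these genes passed, while Rplp1 was at -0.30 (adjusted p = 0.245) and Rplp2 at -0.12 (adjusted p = 0.484). The gene value of Rplp2 mixes forms. Transcripts not annotated as protein-coding held 65.4% of its RPKM in 12-month KO against 33.1% in 12-month WT. On coding transcripts alone, with no trend removed, Rplp2 was at -1.65.

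The members that rose on the deposited values were Rpl5 and Rps23. Neither passed with the trend in GC content and length removed, at 0.16 (adjusted p = 0.197) for Rpl5 and 0.09 (adjusted p = 0.646) for Rps23. Rpl5 was at 110.0, 128.0 and 101.4 CPM in 12-month KO, against 76.3, 87.7 and 85.5 CPM in 12-month WT (log2 fold change 0.44 ± 0.12, adjusted p = 0.0119). It did not pass without KO library 2 or WT library 1. Rps23, a protein of the decoding centre, was at 55.3, 59.7 and 52.6 CPM in KO, against 38.6, 50.1 and 43.7 CPM in WT (0.34 ± 0.13, adjusted p = 0.0467). This value is the signal of a retained-intron form, since 96.1% of its RPKM was in forms not annotated as protein-coding. On coding transcripts alone the log2 fold change of Rps23 was -0.07, and with its pseudogene rows added it was -0.30. Rps23 did not pass when any 1 of the 12-month KO libraries, or 12-month WT library 1 or 3, was left out. Rpl22l1 (0.34, adjusted p = 0.0823), Rpl10 (0.37, adjusted p = 0.0825) and Rpl39 (0.25, adjusted p = 0.0973) had all KO libraries above all WT libraries but did not pass. This order of libraries held for 5 of 79 members, against 27.0% of tested genes.

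**Figure D4:**
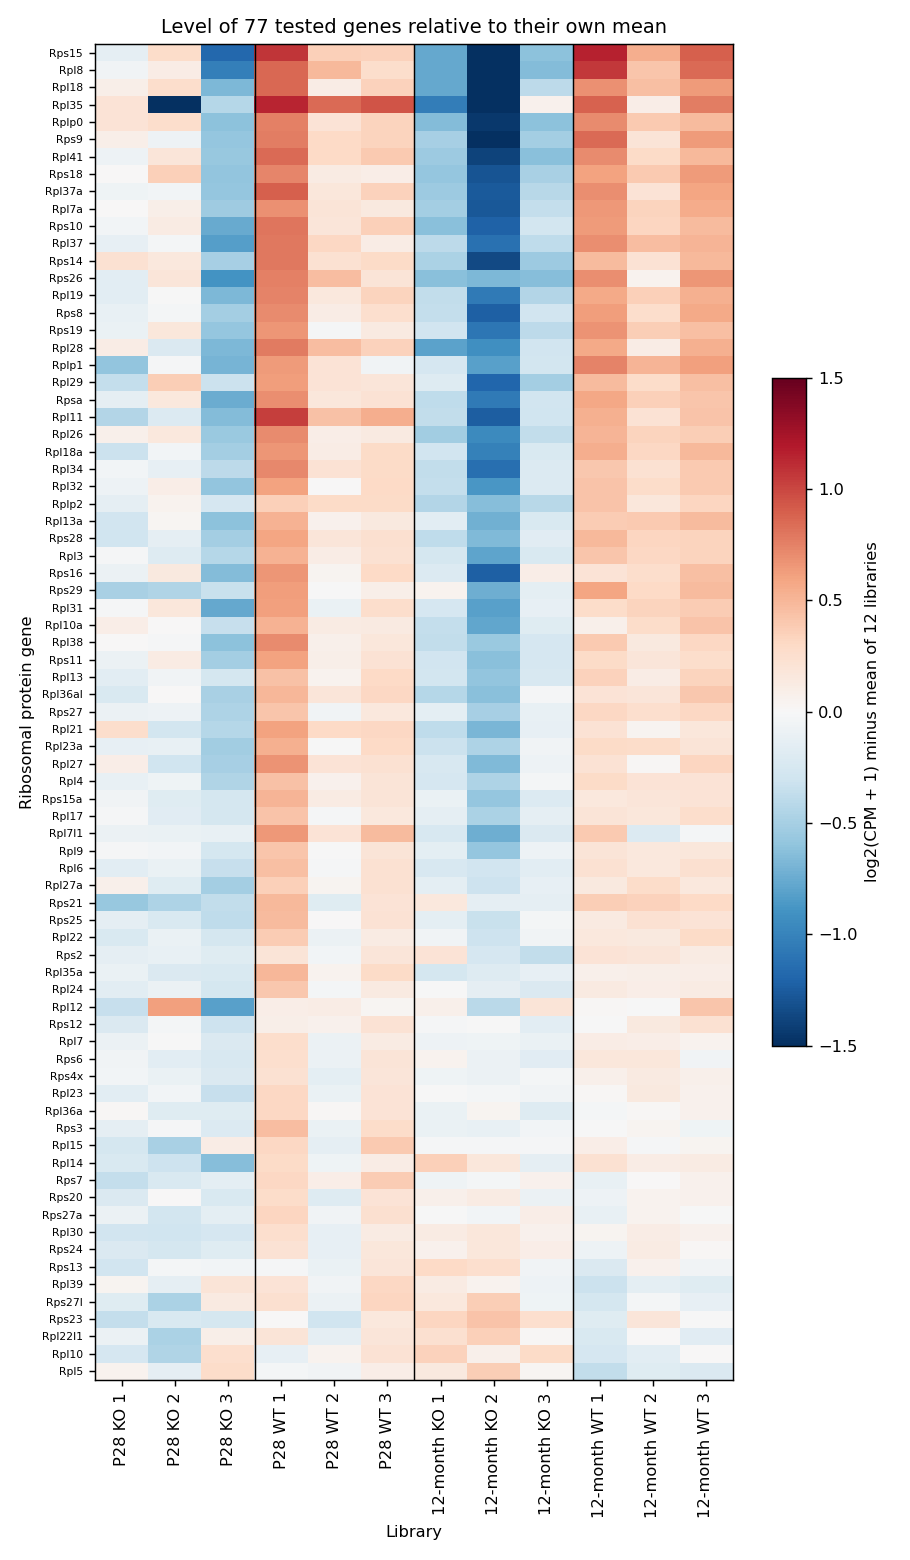
Level of 77 of the 79 tested ribosomal protein genes (rows, from the lowest to the highest 12-month log2 fold change of KO over WT) in each library (columns), as log2(CPM + 1) minus the gene's mean over 12 libraries, with colours limited to -1.5 and 1.5. The upper rows are low in 12-month KO, most of all in library 2, and high in P28 WT library 1, and the bottom rows run the other way at 12 months.

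The 12-month differences followed base composition. Over the 79 members the log2 fold change had a Spearman correlation of -0.67 with GC content and 0.05 with length, and over 16274 tested genes the correlation with GC content was -0.78. At P28 the correlation with GC content was -0.53 over members and -0.35 over tested genes. Length had a correlation of 0.09 over members and 0.39 over tested genes at P28. Over tested genes at 12 months it was 0.22, so shorter genes in general tended to be lower in KO. With the members divided by GC content into 4 sets of 19 or 20, the median 12-month log2 fold change, from low to high GC content, was -0.10, -0.48, -0.91 and -1.08, and 7 of 19, 12 of 20, 15 of 20 and 17 of 20 members fell. The P28 medians changed less over the same sets, at -0.34, -0.42, -0.52 and -0.56.

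The composition of the members at either end can be read from their coding sequences. The first 90 coding bases, 5′ to 3′ from the start codon and with G and C in capitals, are given for the 3 genes with the highest and the 3 with the lowest 12-month fold change among members led by a coding transcript, from GENCODE transcripts on GRCm38. The first 3 are Rpl5 (chr5:107900502-107909005), Rpl10 (chrX:74270812-74273135) and Rpl22l1 (chr3:28805436-28807424), whose levels were 0.44, 0.37 and 0.34 higher in KO on the log2 scale; of these Rpl5 alone passed.
Rpl5: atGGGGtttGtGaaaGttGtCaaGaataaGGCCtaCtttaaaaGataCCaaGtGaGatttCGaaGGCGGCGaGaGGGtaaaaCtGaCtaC
Rpl10: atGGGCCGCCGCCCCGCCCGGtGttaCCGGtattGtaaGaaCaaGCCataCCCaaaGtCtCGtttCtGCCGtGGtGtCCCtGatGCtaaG
Rpl22l1: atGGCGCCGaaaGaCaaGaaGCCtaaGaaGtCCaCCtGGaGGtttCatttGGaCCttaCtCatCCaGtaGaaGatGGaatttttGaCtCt
The other 3 are Rps15 (chr10:80292453-80294114), Rpl8 (chr15:76904078-76906314) and Rpl18 (chr7:45715457-45720836), whose levels were lower in KO. All 6 genes are on the plus strand.
Rps15: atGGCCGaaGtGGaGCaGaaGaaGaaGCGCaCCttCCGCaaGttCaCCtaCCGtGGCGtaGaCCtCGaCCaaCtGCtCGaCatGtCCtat
Rpl8: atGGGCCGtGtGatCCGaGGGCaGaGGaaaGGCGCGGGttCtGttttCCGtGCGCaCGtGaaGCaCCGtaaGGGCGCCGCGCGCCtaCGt
Rpl18: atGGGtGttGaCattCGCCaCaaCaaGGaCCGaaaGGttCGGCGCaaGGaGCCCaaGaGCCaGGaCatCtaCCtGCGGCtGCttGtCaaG
Over the whole coding sequence G and C made up 45.9% of Rpl5, 51.0% of Rpl10 and 39.3% of Rpl22l1, against 58.7% of Rps15, 58.7% of Rpl8 and 58.9% of Rpl18. In the 90 bases shown the shares were 42.2%, 57.8% and 44.4% in Rpl5, Rpl10 and Rpl22l1, and 55.6%, 65.6% and 56.7% in Rps15, Rpl8 and Rpl18. Rpl10 thus opens as GC-rich as Rps15 and Rpl18 but is lower over its full length.

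When a smooth trend in GC content and length was removed from each library, members still leaned lower in KO. At 12 months 18 members fell and 3 rose of 79, where 3.07% of 16274 genes fell and 3.58% rose, and the median was -0.27 against -0.004 over all. At P28 3 fell and 0 rose, where 0.891% fell and 0.793% rose, and the median was -0.32 against -0.01. Each of the 18 had also passed on the deposited values. Among them were Rps9, Rps15, Rps15a, Rps18 and Rps25 of the small subunit, and Rpl3, Rpl4, Rpl7a, Rpl8, Rpl17, Rpl19, Rpl26, Rpl28, Rpl37a, Rpl41 and Rplp0 of the large one. Rps15 remained at -1.19 (adjusted p = 0.0331), Rpl37a at -1.17 (adjusted p = 0.0223), Rplp0 at -1.02 (adjusted p = 0.0211) and Rpl8 at -0.99 (adjusted p = 0.0223). Rpl18 (-0.74, adjusted p = 0.0505), Rps10 (-0.54, adjusted p = 0.0667) and Rpl35 (-0.62, adjusted p = 0.421) no longer passed. Rpl23, Rps20 and Rps7 were higher after removal, at 0.39, 0.72 and 0.51, against -0.11, 0.03 and 0.00 before it. Forms not annotated as protein-coding held 83.2% of the RPKM of Rpl23, 97.6% of that of Rps20 and 52.1% of that of Rps7. At P28 Rpl11 (-0.94) and Rpl35a (-0.37) still passed, Rps28 (-0.48) came in and Rps7 (-0.32) dropped out. The Spearman correlation of 12-month fold change with GC content over members was -0.22 after removal, and the medians of the 4 sets were -0.06, -0.30, -0.34 and -0.30.

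**Figure D5:**
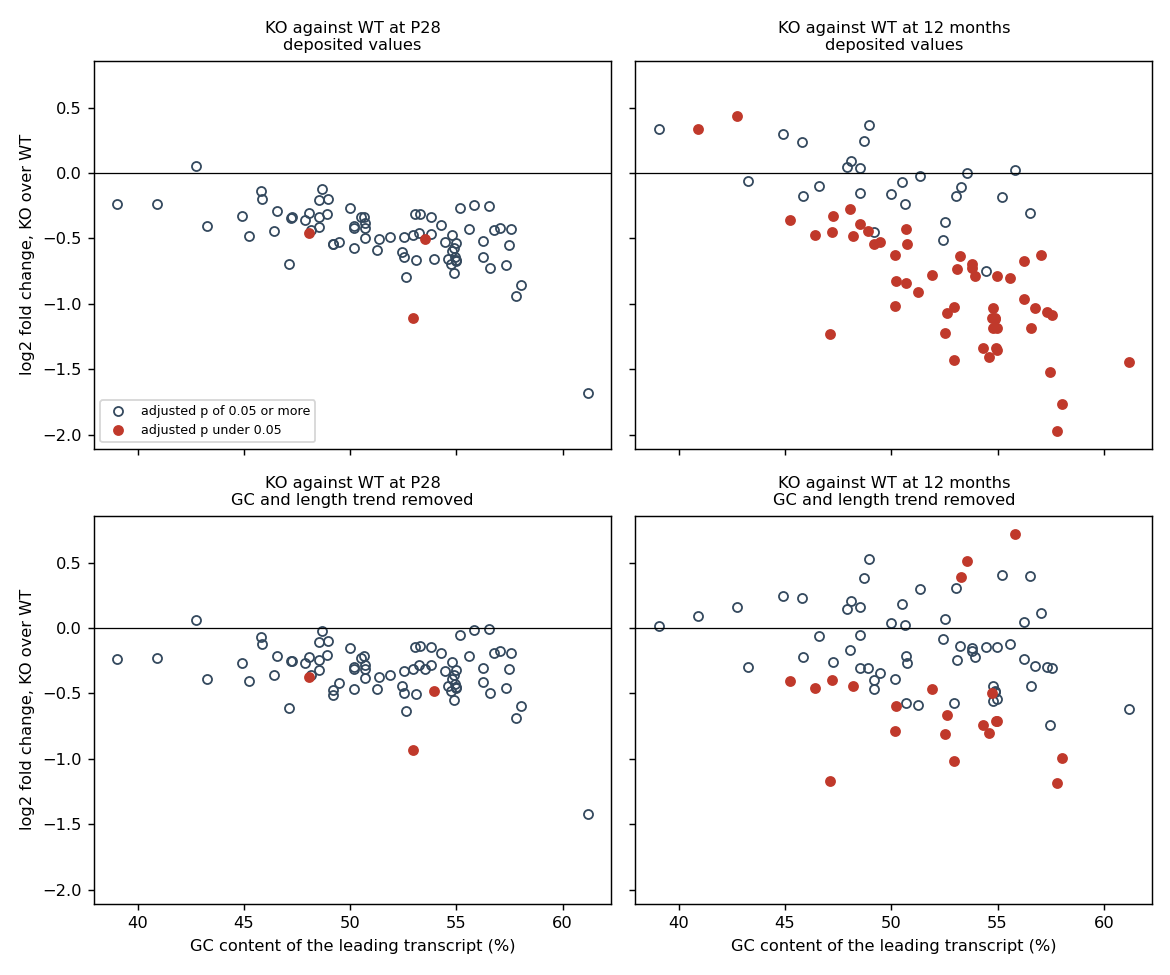
Log2 fold change of KO over WT of the 79 tested ribosomal protein genes against the GC content of the leading transcript (%), at P28 (left) and 12 months (right), on the deposited values (top) and with the GC and length trend removed (bottom). Filled points passed limma at an adjusted p under 0.05; the slope at 12 months, from -0.10 to -1.08 between the sets of lowest and highest GC content, flattens after removal to -0.06 and -0.30.

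Whether the KO difference itself changed with age was tested as an interaction. No member passed in either direction, where 0.0971% of tested genes were lower and 0.0789% higher. At an unadjusted p under 0.05, 5 members were lower and 11 higher, where 15.1% of tested genes were lower and 11.6% higher. With array weights 7 passed as lower and 11 as higher. Without P28 KO library 3, 3 were lower and 5 higher. Shares of all tested genes under these changed fits are not given here, and the shares above belong to the main fit. Rps7 came near, with a difference of 0.50 (adjusted p = 0.0784). As a gene sum it was 0.50 lower in KO at P28 and equal at 12 months. The 12-month values were 52.97, 54.13 and 58.05 CPM in KO against 51.43, 55.73 and 58.09 CPM in WT. On coding transcripts alone Rps7 was lower in KO at both ages, at -1.05 at P28 and -0.76 at 12 months. Forms not annotated as protein-coding held 67.8% of its RPKM in 12-month KO against 50.6% in 12-month WT. Rps15 differed by -1.03 (adjusted p = 0.245), more fall at 12 months than at P28 but within the spread.

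With age in WT retina no member changed by limma: 0 fell and 0 rose at 12 months against P28, where 1.75% of tested genes fell and 3.65% rose. At an unadjusted p under 0.05, 4 members were lower and 0 higher, where 8.10% of tested genes were lower and 11.4% higher. The median was -0.01. Without P28 WT library 2 the count that fell was 2, and without P28 KO library 2 it was 1.

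With age in KO retina 4 members fell and 5 rose, where 13.9% of tested genes fell and 13.3% rose. Rplp0 was at 16.3, 8.99 and 16.7 CPM in 12-month KO, against 30.3, 31.6 and 16.8 CPM in P28 KO (log2 fold change -0.86 ± 0.26, adjusted p = 0.0270). P28 KO library 3 was at the 12-month level. Rps14 (-0.76, adjusted p = 0.0375), Rpl41 (-0.70, adjusted p = 0.0465) and Rplp2 (-0.39, adjusted p = 0.0351) fell as well. Rps23 (0.62, adjusted p = 0.00440), Rpl14 (0.53, adjusted p = 0.0170), Rps21 (0.43, adjusted p = 0.0490), Rpl30 (0.40, adjusted p = 0.00799) and Rps24 (0.33, adjusted p = 0.0215) rose. Rpl30, whose yeast counterpart represses its own splicing, was at 200.9, 207.4 and 192.7 CPM in 12-month KO, against 151.1, 149.9 and 154.5 CPM in P28 KO. Its groups were far apart for their spread. Rpl14 was at -0.32 on coding transcripts alone. With the GC and length trend removed 1 member fell and 9 rose of 79, where 9.97% of 16274 genes fell and 11.8% rose. The share of members that rose was thus near that of all genes. Rplp0 (-0.66) and the 5 genes named as risen passed, while Rps14 (-0.43, adjusted p = 0.0728), Rpl41 (-0.37, adjusted p = 0.113) and Rplp2 (-0.03, adjusted p = 0.878) did not. The fallen were 15 without P28 KO library 3, 7 without 12-month KO library 3, 2 without 12-month WT library 1, 1 without 12-month WT library 3, and 0 without P28 KO library 1 or 2 or 12-month KO library 2. The risen were 3 without P28 KO library 1 or 12-month KO library 1 and 2 without 12-month KO library 2. For fits with a library left out, the shares of all tested genes are not given here. Sex differed in both age comparisons, since 12-month KO held 0 female libraries and P28 KO 2, and 12-month WT held 2 and P28 WT 0.

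The members had 500 annotated transcripts: 234 protein-coding, 176 retained-intron, 65 processed and 25 subject to nonsense-mediated decay (NMD), the pathway that degrades mRNAs with a premature stop. A coding transcript led in 71 genes, a retained-intron form in 7, a processed transcript in 3 and an NMD form in 2. Retained-intron forms held 13.6%, 14.6% and 12.4% of the members' RPKM in 12-month KO, against 9.74%, 11.1% and 10.97% in 12-month WT. At P28 they held 10.2%, 12.0% and 12.0% in KO, against 9.57%, 11.01% and 10.91% in WT. The 12-month groups did not overlap and the P28 groups did. The coding share was 78.4% ± 1.6 in 12-month KO against 81.6% ± 0.85 in 12-month WT, and 81.0% ± 1.8 in P28 KO against 82.7% ± 0.97 in P28 WT (SD, n = 3 each). In Rpl24, which links the subunits, transcripts not annotated as protein-coding held 90.1% of its RPKM in 12-month KO against 49.0% in 12-month WT, and 75.1% in P28 KO against 28.2% in P28 WT. Rpl14 was alike, at 79.0% against 42.9% at 12 months and 60.2% against 38.6% at P28 (KO against WT). These are shares of estimated levels within a gene whose transcripts share exons, and Rpl24 and Rpl14 were picked after their values were seen.

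Rows named as pseudogenes of the members, mostly intronless copies that share reads with the parent gene, were 317 in number. They held 7.30%, 8.47% and 6.60% of the joint signal in P28 KO against 7.75%, 7.43% and 7.23% in P28 WT, and 7.001%, 7.13% and 6.85% in 12-month KO against 8.503%, 7.84% and 7.78% in 12-month WT. The share was lower in all 12-month KO libraries. It was largest for Rpl28 (72.8%), Rpl10 (65.7%), Rpl27 (60.8%), Rpl14 (55.8%), Rps7 (54.2%) and Rps23 (50.6%), whose own values are uncertain for that reason. With pseudogene rows added to their parents, 55 members fell and 1 rose at 12 months.

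Promoters of ribosomal protein genes are known for sites of the ETS factor GABP (CCGGAAG), of YY1 (AAGATGG) and of Sp1 (GGGCGG), and for the pyrimidine run at the start (here CTCTTTC). RefSeq promoters (GRCm38.p6, 250 bases before to 50 after the start) were matched for 63 of 83 members, and both strands were searched. Hits anywhere in this window were counted, so a CTCTTTC hit need not be the pyrimidine run at the start. CCGGAAG was in 39.7% of member promoters against 9.9% of all 27025, CTCTTTC in 27.0% against 9.3%, AAGATGG in 15.9% against 7.3%, and GGGCGG in 61.9% against 38.2%. Some motifs can overlap, as CCGGAAG and AAGATGG share the letters AAG. Members with CCGGAAG had a median 12-month log2 fold change of -0.77 (24 tested), against -0.47 in those without (36 tested). The other motifs split members less, and for CTCTTTC the medians were -0.67 (17 tested) and -0.45 (43 tested). These are deposited values, whose 12-month fold change followed GC content over members. The splits were not adjusted for GC content, and a link of motif and fold change was not tested. As examples, the stretch from 70 bases before to 30 after the start is given 5′ to 3′ on the gene's strand, with CCGGAAG and CTCTTTC sites on either strand in capitals, for 2 members that fell at P28 and 2 that fell at 12 months. They are Rpl11 (chr4:136053364-136053463, minus strand), Rps7 (chr12:28635924-28636023, minus strand), Rpl35 (chr2:39005102-39005201, minus strand) and Rpl18 (chr7:45718001-45718100, plus strand).
Rpl11: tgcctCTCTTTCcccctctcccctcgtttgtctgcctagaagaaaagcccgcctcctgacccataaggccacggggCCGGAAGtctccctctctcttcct
Rps7: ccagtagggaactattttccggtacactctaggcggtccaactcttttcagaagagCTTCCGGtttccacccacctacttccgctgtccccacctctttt
Rpl35: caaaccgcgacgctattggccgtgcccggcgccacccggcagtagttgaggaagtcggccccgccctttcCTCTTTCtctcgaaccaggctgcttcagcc
Rpl18: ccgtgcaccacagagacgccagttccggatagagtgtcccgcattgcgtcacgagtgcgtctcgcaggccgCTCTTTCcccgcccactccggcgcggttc
Rpl11 carries both motifs, but its CTCTTTC lies near the 5′ end of the stretch and not at the start. Rps7 carries the GABP motif on the other strand, and Rpl35 and Rpl18 the pyrimidine run at or next to the start.

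The name rule misses some proteins of the ribosome. Of these, Fau (-1.38, adjusted p = 0.00292) and Rack1 (-0.61, adjusted p = 0.00451) fell at 12 months, and Rps3a1 was at -0.24 (adjusted p = 0.105). At P28 they were at -0.48, -0.40 and -0.39 in the same order, with adjusted p from 0.0878 to 0.257. The other lists are read against the 23.5% of tested genes that fell and 16.1% that rose at 12 months, and against 3.07% and 3.58% with the GC and length trend removed. All 6 elongation factors fell at 12 months, and 3 with the trend removed, led on the deposited values by Eef1a2 (-1.64, adjusted p = 0.00298), the form of neurons and muscle, and Eef2 (-1.49, adjusted p = 0.00340), which moves the ribosome along the mRNA. Of 29 initiation factors 13 fell and 7 rose, and of 33 ribosome biogenesis factors 9 fell and 5 rose, with medians of -0.24 and -0.07. With the trend removed 2 initiation factors fell and 2 rose, and 1 biogenesis factor fell and 2 rose. Of 17 genes of RNA polymerase I and its factors, which make ribosomal RNA, 8 fell and 2 rose (median -0.37), and with the trend removed 0 fell and 0 rose (median -0.09). Of 9 ribosomal protein chaperones 3 fell and 1 rose (median -0.14), and with the trend removed 1 fell and 0 rose.

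Of 12 other TOP mRNAs 2 fell and 5 rose at 12 months, with a median of 0.18 and a median GC content of 46.0%. With the trend removed 1 fell and 1 rose. Npm1 (0.41), Tpt1 (0.42), Nap1l1 (0.40), Eif3e (0.46) and Eif4a2 (0.30) rose and Eif3f (-0.64) and Eif3h (-0.37) fell. Of 14 genes of mTORC1 and its control of TOP mRNAs 8 fell and 3 rose: Rptor (-1.11), Tsc2 (-0.72) and Mtor (-0.44) fell, and Rheb (0.66) and the S6 kinase Rps6kb1 (0.45) rose. With the GC and length trend removed 1 of the 14 fell and 0 rose. Of the 8 tested promoter factors Gabpa alone passed (0.59, adjusted p = 0.00315), and none of the 8 passed with the trend removed. Of 9 genes of nucleolar stress and p53, Trp53 (-0.78), Bax (-0.72) and Sesn2 (-0.83) fell and Ccng1 (0.47) and Mdm4 (0.32) rose, and with the trend removed 0 fell and 1 rose. At P28, over all these lists, Hnrnpa1 (-0.59, adjusted p = 0.00990) fell and Mdm4 (0.49, adjusted p = 0.0413) rose.

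Mitochondrial ribosomal proteins and the nuclear genes of the respiratory chain were set beside the members as comparable housekeeping groups. At 12 months 30 of 78 mitochondrial ribosomal proteins fell and 1 rose, with a median of -0.19, and 42 of 83 respiratory chain genes fell and 3 rose, with a median of -0.36, against -0.63 in the members. At P28 no gene of either list passed, and the medians were -0.32 and -0.34, against -0.46 in the members. With the trend removed 3 mitochondrial ribosomal proteins fell and 6 rose, 11 respiratory chain genes fell and 1 rose, and the 12-month medians were -0.06 and -0.12, against -0.27 in the members. The difference between the lists was not tested. The genes outside the members whose log2 level over the 12 libraries was most like the mean of the tested members were Psmc5 (Pearson r = 0.989), Psmb6, Sod1, Mrps28 and the pseudogene Rpl27-ps3 (r = 0.988 each).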

How the data were processed

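Retinal poly(A) RNA was measured in 12 libraries. The submitters' processing notes list kallisto 0.45.0 with Ensembl 102, tximport 1.30.0 for gene sums and edgeR 4.0.3 for scaling. The notes name a human reference, but the deposited identifiers are mouse, and all 83 members had the coordinates of the GRCm38 annotation (GENCODE). For genes the authors deposited a signal, CPM divided by a TMM factor, not logged. For transcripts the authors deposited RPKM. How RPKM was made is not given in the sources used here. Neither is counts, and 11.0 to 28.4% of low values were whole reads to within 0.01 reads, so no count model was run.

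Genes with at least 1 CPM in 3 libraries (16486, of them 79 members) were tested with limma 3.58.1 (R 4.3.3) on log2(CPM + 1), with 4 group means, eBayes with a trend and Benjamini-Hochberg adjustment over all tested genes at 0.05. The 5 contrasts share libraries. GC and length trends were removed per library with splines of 5 degrees of freedom, and 98.7% of tested genes had both values. The named genes are the largest changes that passed in each contrast, the 5 highest and lowest levels, paralogs, untested members and genes needed to make a small count clear. The members and lists were chosen with earlier results of these data known. Steps were tested on simulated data. Tables used pandas 2.3.3 and numpy 2.4.6 in Python 3.11.15, and plots matplotlib 3.10.9. Some genes that entered the fits and counts are not reported by name here. Raw reads were not analysed here.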

Additional observations from a re-analysis of the deposited data

How the results depend on the processing

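Depth limits the untested paralogs, which lie near or below 3 reads. Rpl36 was below 3 reads in every 12-month KO library and in P28 KO library 2, and above 3 reads in the other libraries. Over 26 named calls and 572 alternative values (libraries left out only from the groups compared), 443 kept call and direction, 126 lost the call and 3 reversed: Rps23 at 12 months with pseudogene rows (-0.30) or coding transcripts alone (-0.072), and Rpl14 with age in KO on coding transcripts (-0.32). Unless stated, the cause of a change was not tested. The coding-transcript setting was chosen after seeing the data.

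Shares of all tested genes were given above for the main fits and for trend removal alone. For the other settings, here and above, they are not given, so those counts cannot be set against the main shares. Members lower in KO at P28 numbered 3. They were 1 with no expression filter, 5 at a CPM of at least 5, 7 after quantile normalization, 6 on summed RPKM, 32 with array weights, 0 when fitting only the groups compared, 0 with a sex term, 0 in male libraries only, and 0 to 19 leaving out 1 library. The 51 lower at 12 months were 19 in male libraries only, where fewer samples remain, 18 with GC and length trends removed, and 34 to 53 leaving out 1 library. The 2 higher at 12 months were 1 with no filter, on summed RPKM, with pseudogene rows, on coding transcripts or with a sex term, 6 with array weights, 5 fitting only the groups compared, 0 in male libraries, and 0 to 4 leaving out 1 library. The interaction, 0 in both directions, gave 7 lower and 11 higher with array weights, and 0 to 3 lower and 0 to 5 higher leaving out 1 library. With age in WT, 0 lower became 1 after quantile normalization, 3 with array weights, 2 fitting only the groups compared, and 0 to 2 leaving out 1 library. With age in KO, the 4 lower were 1 with no filter, 2 after quantile normalization, 17 with array weights, 0 fitting only the groups compared, 1 with a sex term, 0 in male libraries, 1 with trends removed, and 0 to 15 leaving out 1 library. The 5 higher were 11 with array weights, 2 fitting only the groups compared, 2 with a sex term, 1 in male libraries, 9 with trends removed, 3 on coding transcripts, and 2 to 7 leaving out 1 library. The summed ratio was 0.712 to 0.823 at P28 leaving out 1 library, and 0.707 at 12 months as a share of all signal.

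Replicate numbers do not pair the samples: same-numbered libraries had correlated deviations of -0.33 to 0.308. With the replicate number as a block, 0 members were lower at P28 and 1 was higher at 12 months, and 52 were lower at 12 months. With the block and trends removed, the counts were 1 lower at P28, 17 lower at 12 months, and 2 lower and 9 higher with age in KO.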
